A study of Homo sapiens with 2 samples.

Results

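The miRNAs described here are the mature arms of the miR-374a, miR-374b, miR-374c, miR-545 and miR-421 hairpins, which lie in and antisense to the long noncoding RNA gene FTX on the X chromosome. They were chosen by name, and all 9 arms named were found among the 2218 miRNAs measured. Small RNA was sequenced from K562 cells that received a lentivirus overexpressing QKI5, and from K562 cells that received a GFP lentivirus as the control. K562 is an erythroleukaemia line, and each group was 1 library, so no difference below has a replicate check and no p-value is given. The labels do not say how the cells were selected after transduction or how far QKI5 was overexpressed, and the QKI5 transcript was not analysed here. The groups are called QKI5 cells and GFP cells. Levels are given in RPM, reads per 1000000 of that library's total, and intervals in brackets are exact 95% intervals for counting error only. The labels name no molecular identifiers, so several reads may come from 1 molecule, and these intervals leave out the spread between cultures and libraries.

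FTX is transcribed from the X-inactivation centre, and in the mouse its counterpart has been tied to the control of Xist. Most miRNAs are cut from a hairpin in a longer transcript by Drosha and then Dicer, after which one arm is usually loaded into an Argonaute protein and the other is mostly degraded. The loaded arm pairs with mRNAs chiefly through its seed, bases 2 to 8. QKI5 is the nuclear isoform of Quaking, an RNA-binding protein known for its part in splicing and in the processing of some primary miRNA transcripts.

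In the GENCODE release 29 annotation, none of the 5 hairpins overlaps an exon of FTX. MIR421, MIR374B and MIR374C lie within the introns of 7 of the 18 FTX transcripts, and MIR545 and MIR374A within introns of 13. They form 2 groups. MIR421 and MIR374B are 85 bases apart, MIR545 and MIR374A are 76 bases apart, and 68485 bases separate MIR374B from MIR545. MIR374C lies on the opposite strand over MIR374B, so it is antisense to FTX, while the other 4 hairpins lie on the strand of FTX. The mature sequences credited to RefSeq (GRCh38.p14) matched 8 of the 9 names and are shown because the overlaps between arms bear on how their reads can be told apart. The capitals mark the seed.
hsa-miR-374b-5p: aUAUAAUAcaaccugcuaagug
hsa-miR-374b-3p: cUUAGCAGguuguauuaucauu
hsa-miR-374c-5p: aUAAUACAaccugcuaagugcu
hsa-miR-374c-3p: cACUUAGCagguuguauuauau
hsa-miR-374a-3p: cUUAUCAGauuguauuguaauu
hsa-miR-545-3p: uCAGCAAAcauuuauugugugc
hsa-miR-545-5p: uCAGUAAAuguuuauuagauga
hsa-miR-421: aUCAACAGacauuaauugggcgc
The arm not matched was miR-374a-5p, so its seed could not be compared with the others. The 8 arms shown have 8 different seeds. They are rich in A and U, with GC contents of 22.7% for miR-374a-3p and miR-545-5p, 31.8% for miR-374b-5p, miR-374b-3p and miR-374c-3p, 36.4% for miR-374c-5p and miR-545-3p, and 43.5% for miR-421. The mean over the 358 of the 400 most abundant miRNAs with a sequence was 48.0%. Sequences show 2 kinds of overlap. miR-374c-3p is the exact reverse complement of all 22 bases of miR-374b-5p. In the same orientation, miR-374c-5p shares a run of 20 bases with miR-374b-5p, and miR-374c-3p shares a run of 18 bases with miR-374b-3p.

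The hairpins of miR-374b and miR-374c show the source of both overlaps, and their arms are in capitals.
MIR374B: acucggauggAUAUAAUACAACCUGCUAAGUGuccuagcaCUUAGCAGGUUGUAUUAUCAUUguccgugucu
MIR374C: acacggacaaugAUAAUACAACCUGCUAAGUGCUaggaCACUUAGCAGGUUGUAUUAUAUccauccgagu
RefSeq places MIR374B at chrX:74218547-74218618 on the minus strand and MIR374C at chrX:74218549-74218618 on the plus strand (GRCh38.p14). The 70 bases of MIR374C are the exact reverse complement of bases of MIR374B. The submitters' processing notes name hg19, and whether reads were assigned by strand, or how reads matching more than 1 miRNA were counted, is not stated in the sources used here.

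The library totals recovered from the deposited values were 6553945 reads for QKI5 and 23262340 for GFP, a difference in depth of 3.55 times. The values themselves do not show whether these totals count all sequenced reads or only mapped ones. Differences are given as plain ratios of RPM, and calls were made among the 400 miRNAs of highest mean level, where a log2 ratio on log2(RPM + 0.153) of 1 or more in either direction counted as higher or lower. The pseudocount of 0.153 RPM draws ratios resting on few reads toward 1. All 400 had at least 59 reads in one of the libraries. Of these, 83 (20.8%) were 2-fold or more higher and 29 (7.25%) were 2-fold or more lower, with a median log2 ratio of 0.21 and an SD across miRNAs of 0.95. That split depends on the scaling. The numbers higher and lower were 54 and 45 under quantile normalization, 29 and 91 under a trimmed mean over all miRNAs detected in both libraries, and 49 and 50 under a trimmed mean over the 400, an alternative added after the data were seen. All 5 blood miRNAs listed for the cell line were detected. Detection alone cannot check its identity, because most miRNAs were detected. Of 2218 measured, 1448 had reads from QKI5 cells and 1812 from GFP cells. The erythroid miR-451a, miR-144-3p and miR-486-5p were at 2187, 293 and 608 RPM in QKI5 cells and at 2798, 548 and 528 RPM in GFP cells, so that miR-144-3p differed most, 1.87-fold lower (1.78 to 1.96). The leukocyte miR-142-3p and miR-223-3p were at 10427 and 9840 RPM in QKI5 cells and at 8889 and 9441 RPM in GFP cells.

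Together the 9 arms held 1256 RPM in QKI5 cells and 1007 RPM in GFP cells, a ratio of 1.25 (1.22 to 1.28). The direction of this sum depends on the scaling, with a ratio of 0.836 under the trimmed mean over all detected miRNAs and 1.03 under the trimmed mean over the 400. They made up 0.211% of the miRNA reads of the QKI5 library and 0.152% of those of the GFP library. miR-374b-5p alone held 55.1% of this sum in QKI5 cells and 50.0% in GFP cells. Of the 9 arms, 8 were among the 400 most abundant miRNAs, at ranks 62 to 373, and miR-374c-5p stood outside at rank 514. Within the 8, 4 had a positive and 4 a negative log2 ratio, 0 were 2-fold or more higher and 1 was 2-fold or more lower. The positive ratios belonged to the more abundant arms miR-374b-5p, miR-374a-5p, miR-374c-3p and miR-421, and the negative ones to the 4 less abundant arms. The median of the 8 was -0.05, beside 0.21 for all 400.

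**Figure D1:**
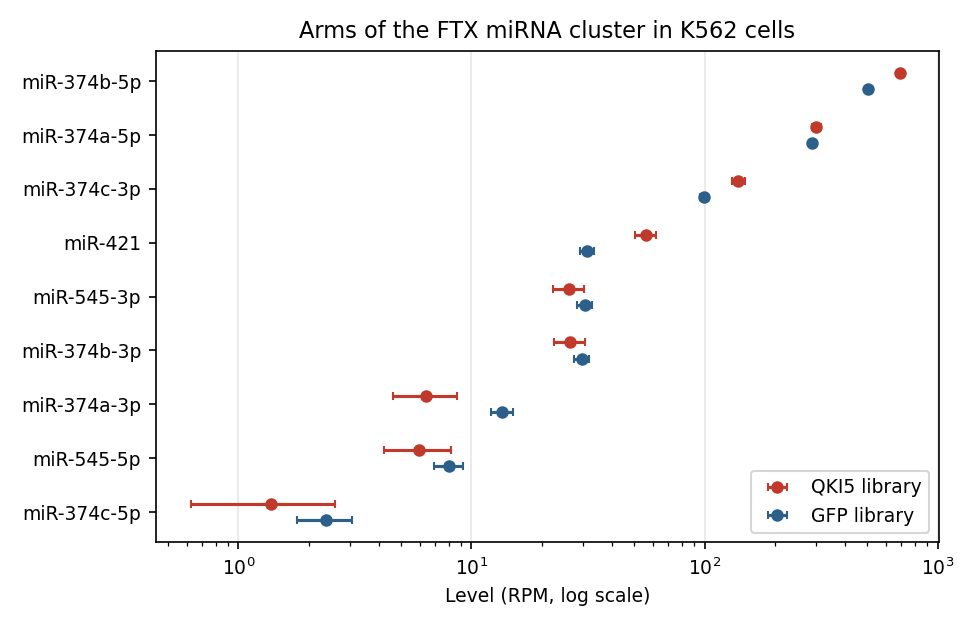
Level of each of the 9 arms in RPM on a log scale, ordered by mean level, with 1 point for the QKI5 library (red) and 1 for the GFP library (blue) and exact 95% counting intervals as bars. miR-374b-5p is highest, at 692 RPM in QKI5 cells and 504 RPM in GFP cells, and miR-374c-5p is lowest, at 1.37 RPM in QKI5 cells and 2.36 RPM in GFP cells.

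In the group with miR-374b, hsa-miR-374b-5p was the most abundant arm, and it has been studied in T-cell lymphoma as a repressor of AKT1. It was at 692 RPM (4538 reads) in QKI5 cells and 504 RPM (11722 reads) in GFP cells, a ratio of 1.37 (1.33 to 1.42). It ranked 59th by level in QKI5 cells and 70th in GFP cells. Its log2 ratio of 0.46 was the 151st highest of the 400, and it turned to -0.12 under the trimmed mean over all detected miRNAs. The 3 miRNAs nearest to it in both log2 levels, by Euclidean distance over these 2 libraries, were miR-493-3p (0.089), miR-146b-5p (0.19) and miR-486-5p (0.20). miR-493-3p was at 652 RPM in QKI5 cells and 495 RPM in GFP cells.

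Its partner arm was far less abundant and did not share this direction. hsa-miR-374b-3p was at 26.4 RPM (173 reads) in QKI5 cells and 29.7 RPM (690 reads) in GFP cells. The ratio was 0.890, with a counting interval of 0.749 to 1.05 that includes 1. Across the 358 miRNAs with a sequence the log2 ratio was 0.27 higher per 10 percentage points of GC content, and with this trend removed the log2 ratio of miR-374b-3p was 0.27 instead of -0.17.

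hsa-miR-421 is cut from the hairpin next to MIR374B and has been reported to repress the DNA damage kinase ATM. It was at 56.1 RPM (368 reads) in QKI5 cells and 31.3 RPM (729 reads) in GFP cells. At a ratio of 1.79 (1.58 to 2.03) it had the highest ratio of the 9 arms, though under 2-fold. Its log2 ratio of 0.84 was the 98th highest of the 400 and was positive under all 9 other settings of scaling, pseudocount, depth and GC content tried, from 0.26 to 0.99. The files list 1 arm for this hairpin, so no arm ratio could be taken.

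In the group with miR-374a, the more abundant arm of each hairpin had a ratio whose interval includes 1. hsa-miR-374a-5p, which has been reported to repress inhibitors of Wnt signalling in breast cancer, was at 301 RPM (1975 reads) in QKI5 cells and 288 RPM (6700 reads) in GFP cells. The ratio was 1.05 (0.995 to 1.10). Its log2 ratio of 0.07 turned to -0.04 when the scaling omitted the 10 most abundant miRNAs, to -0.51 under the trimmed mean over all detected miRNAs and to -0.22 under the trimmed mean over the 400. hsa-miR-545-3p, an arm studied together with miR-374a in liver cancer, was at 26.2 RPM (172 reads) in QKI5 cells and 30.7 RPM (714 reads) in GFP cells. The ratio was 0.855 (0.720 to 1.01), and the log2 ratio was -0.22, or 0.09 with the GC trend removed. hsa-miR-545-5p, the less abundant arm, was at 5.95 RPM (39 reads) in QKI5 cells and 8.0 RPM (186 reads) in GFP cells, a ratio of 0.744 (0.513 to 1.06). Its log2 ratio of -0.42 was 0.27 with the GC trend removed.

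The 1 arm past 2-fold was hsa-miR-374a-3p, the less abundant arm of miR-374a. It was at 6.41 RPM (42 reads) in QKI5 cells and 13.5 RPM (315 reads) in GFP cells, 2.11-fold lower (1.53 to 2.99). The interval reaches well inside 2-fold, and its log2 ratio of -1.06 missed the threshold in 5 of these 9 settings. It was -0.37 with the GC trend removed. This 1 of 8 arms stands beside 7.25% of all 400.

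**Figure D2:**
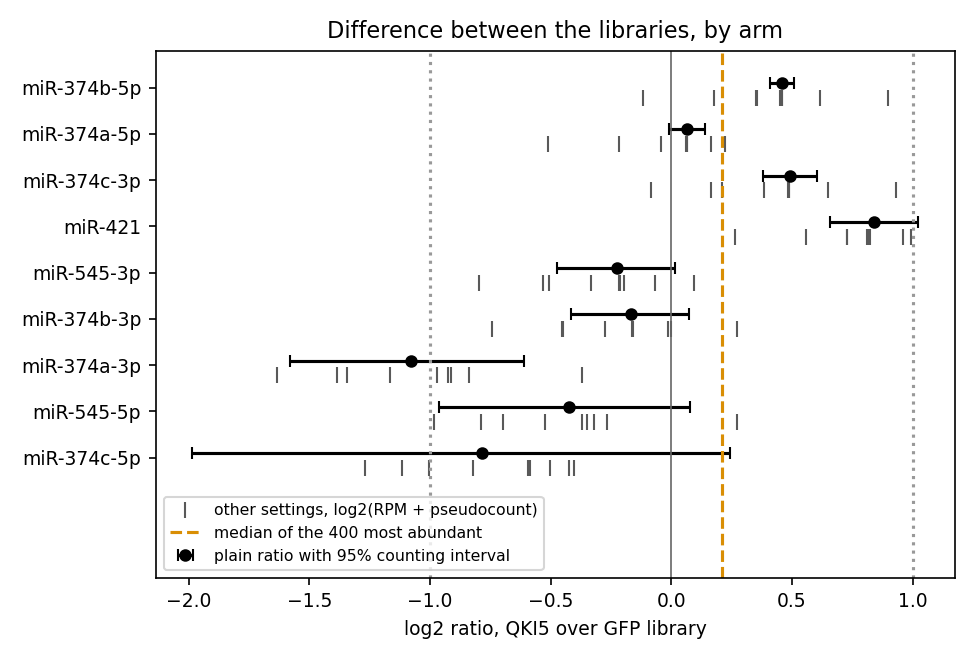
Difference of each arm as the log2 ratio of the QKI5 over the GFP library, with the plain ratio and its 95% counting interval (black) and the values under other scalings, pseudocounts, depth and base composition (grey ticks). miR-421, miR-374a-3p and miR-374c-5p keep their side of 0 under every setting drawn, miR-421 above and the others below, while the remaining 6 arms cross 0 under at least 1. Dotted lines mark 2-fold and the dashed line the median of 0.21 of the 400 most abundant miRNAs.

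A scaling factor per library moves all these ratios together, so the arms were also compared with each other within a library, which does not depend on such a factor. Some arms of the 2 hairpin groups of FTX differed in this measure in the deposited values. There were 2.30 miR-374b-5p reads per miR-374a-5p read (2.18 to 2.42) in QKI5 cells and 1.75 (1.70 to 1.80) in GFP cells, so this ratio was 1.31 times as high (1.24 to 1.40) in QKI5 cells. The less abundant arms differed in the same direction, with 4.12 miR-374b-3p reads per miR-374a-3p read (2.93 to 5.92) in QKI5 cells and 2.19 (1.91 to 2.51) in GFP cells. In sum, the 5 arms of MIR374B, MIR374C and MIR421 were at 916 RPM in QKI5 cells and 667 RPM in GFP cells, a ratio of 1.37 (1.33 to 1.42). The 4 arms of MIR374A and MIR545 were at 339.9 RPM in QKI5 cells and 340.3 RPM in GFP cells, a ratio of 0.999 (0.953 to 1.05). Any scaling factor per library shifts both of these ratios equally. Whether the reads of miR-374c are separate from those of miR-374b was not tested. The 2 arms of miR-374b alone had a ratio of 1.35 (1.30 to 1.39).

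In the deposited values, neighbouring hairpins within a group differed as well, though less for miR-421 and miR-374b-5p with the GC trend removed. There were 0.0811 miR-421 reads per miR-374b-5p read (0.0727 to 0.0902) in QKI5 cells and 0.0622 (0.0576 to 0.0670) in GFP cells, 1.30 times as many (1.14 to 1.49). miR-421 has the higher GC content of this pair, and correcting for the GC trend gave log2 ratios of 0.96 for miR-421 and 0.90 for miR-374b-5p, instead of 0.84 and 0.46. There were 0.0871 miR-545-3p reads per miR-374a-5p read (0.0741 to 0.102) in QKI5 cells and 0.107 (0.0985 to 0.115) in GFP cells, 0.817 times as many (0.683 to 0.974). This pair could not be corrected for GC content, as miR-374a-5p has no sequence here. miR-421 and miR-545-3p were nearly level in GFP cells, at 1.02 miR-421 reads per miR-545-3p read (0.920 to 1.13), but not in QKI5 cells, where the ratio was 2.14 (1.78 to 2.58).

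Each of the 4 hairpins with both arms listed had, as deposited, more reads of the abundant arm per read of the other arm in QKI5 cells, but for miR-545 the interval of that change includes 1 and the change was 0.887 after correction for the GC trend. Whether the reads listed for miR-374c are separate from those of miR-374b was not tested, so these hairpins may not be separate observations. For miR-374a there were 47.0 5p reads per 3p read (34.7 to 65.5) in QKI5 cells and 21.3 (19.0 to 23.9) in GFP cells, a change of 2.21 (1.59 to 3.14). After thinning the GFP library to the depth of the other the change was 1.89, under 2-fold, and no GC correction could be made for it. For miR-374b there were 26.2 (22.5 to 30.7) in QKI5 cells and 17.0 (15.7 to 18.4) in GFP cells, a change of 1.54 (1.30 to 1.84). Both arms of miR-374b have 7 G or C among 22 bases, so a correction for GC content leaves this change as it is. For miR-374c, whose change was 2.64 after that correction, the 3p arm is the abundant one, with 102 reads per 5p read (53.4 to 223) in QKI5 cells, where the 5p arm had 9 reads, and 42.0 (32.2 to 56.0) in GFP cells, a change of 2.42 (1.18 to 5.60). miR-545 had 4.41 3p reads per 5p read (3.10 to 6.42) in QKI5 cells and 3.84 (3.26 to 4.54) in GFP cells, a change of 1.15 (0.775 to 1.73).

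Changes in either direction were common. In 102 hairpins with both arms among the 400 most abundant miRNAs, the ratio of the more to the less abundant arm was higher in QKI5 cells for 60 and lower for 42, with a median change of 1.14. It was at least 2-fold higher for 23 of them (22.5%) and at least 2-fold lower for 18 (17.6%). miR-374a was one of these 23 and ranked 16th of the 102, miR-374b ranked 36th and miR-545 50th. The count of 1 in 3 hairpins past 2-fold, which was 0 with GFP reads thinned, is thus to be read beside 22.5% of all.

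**Figure D3:**
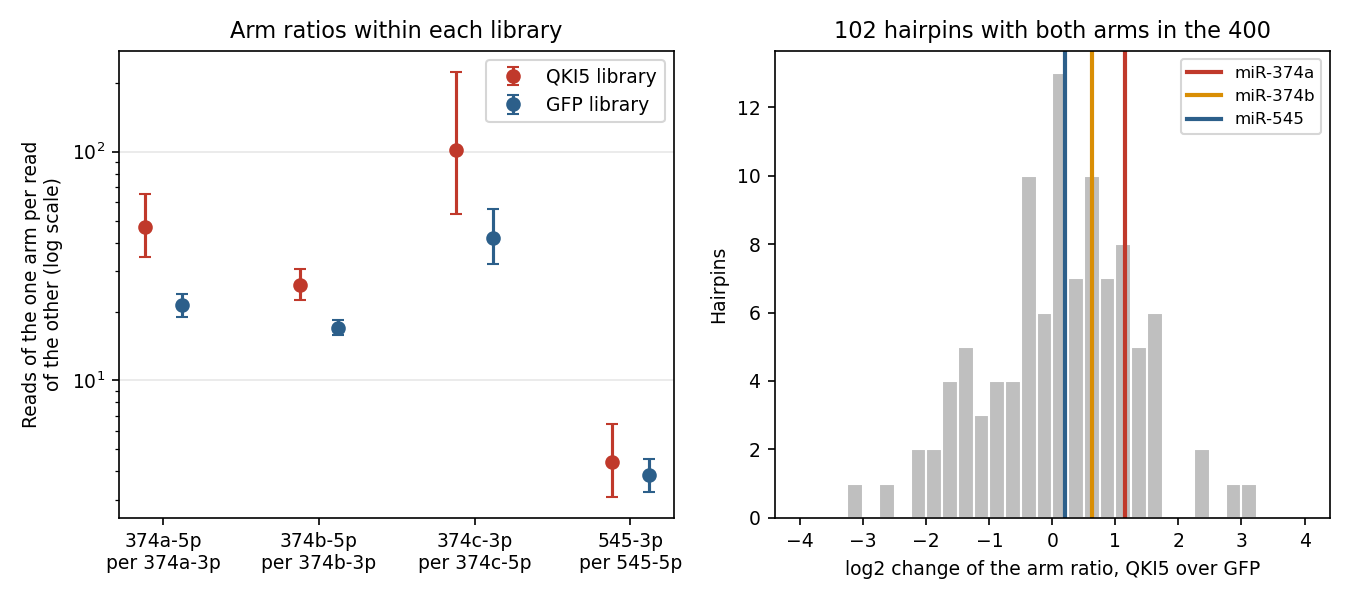
Left, reads of the more abundant arm per read of the other arm in the QKI5 (red) and GFP (blue) library, with exact 95% counting intervals on a log scale. Right, the log2 change of that ratio, QKI5 over GFP, for 102 hairpins (grey bars), with coloured lines for miR-374a, miR-374b and miR-545. All of these lines lie on the positive side, miR-374a at 1.14 above the upper quartile of 0.91 and the others below it.

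The antisense arm hsa-miR-374c-3p was the third most abundant of the 9, at 140 RPM (916 reads) in QKI5 cells and 99.3 RPM (2311 reads) in GFP cells. Its ratio of 1.41 (1.30 to 1.52) lay close to the 1.37 of miR-374b-5p, its exact reverse complement, and its log2 ratio was -0.08 under the trimmed mean over all detected miRNAs. There were 0.202 miR-374c-3p reads per miR-374b-5p read (0.188 to 0.217) in QKI5 cells and 0.197 (0.188 to 0.206) in GFP cells, a change of 1.02 (0.940 to 1.11). Set against miR-374b-3p, with which it shares 18 bases, miR-374c-3p did not keep a constant ratio: there were 5.29 miR-374c-3p reads per miR-374b-3p read (4.50 to 6.27) in QKI5 cells and 3.35 (3.07 to 3.65) in GFP cells, a change of 1.58 (1.31 to 1.91). The other antisense arm, hsa-miR-374c-5p, was at 1.37 RPM (9 reads) in QKI5 cells and 2.36 RPM (55 reads) in GFP cells. A ratio of 0.581 (0.252 to 1.18) was not distinguishable from 1 at this depth. Whether reads of miR-374b were counted for miR-374c was not tested, since the deposited values carry no strand.

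Other miRNAs that lie antisense to each other were set beside the pair of miR-374c-3p and miR-374b-5p. Of 33 pairs of listed miRNAs that overlap by at least 16 bases on opposite strands, 11 had at least 10 reads of both miRNAs in both libraries. The pair of miR-374c-3p and miR-374b-5p was among them, and the pair of miR-374c-5p and miR-374b-3p was not. Which miRNA is the less abundant was set once per pair. Its reads per read of its partner differed by no more than 1.5 times between the libraries in 9 of the 11 pairs. The pair of miR-374c-3p and miR-374b-5p is 1 of these 9. The pairs of miR-3130-3p with miR-3130-5p and of miR-5583-5p with miR-5583-3p share a miRNA name. The same share was not computed for pairs that are not antisense, so whether it is particular to antisense pairs was not tested. miR-103b had 0.354 reads per miR-103a-3p read in QKI5 cells and 0.353 in GFP cells, and miR-3184-3p had 0.337 per miR-423-5p read in QKI5 cells and 0.336 in GFP cells. These examples were chosen after their values were seen. The exceptions were miR-642b-3p over miR-642a-5p, at 0.0493 in QKI5 cells and 0.0216 in GFP cells, and miR-3074-5p over miR-24-3p, at 0.0361 in QKI5 cells and 0.0659 in GFP cells.

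**Figure D4:**
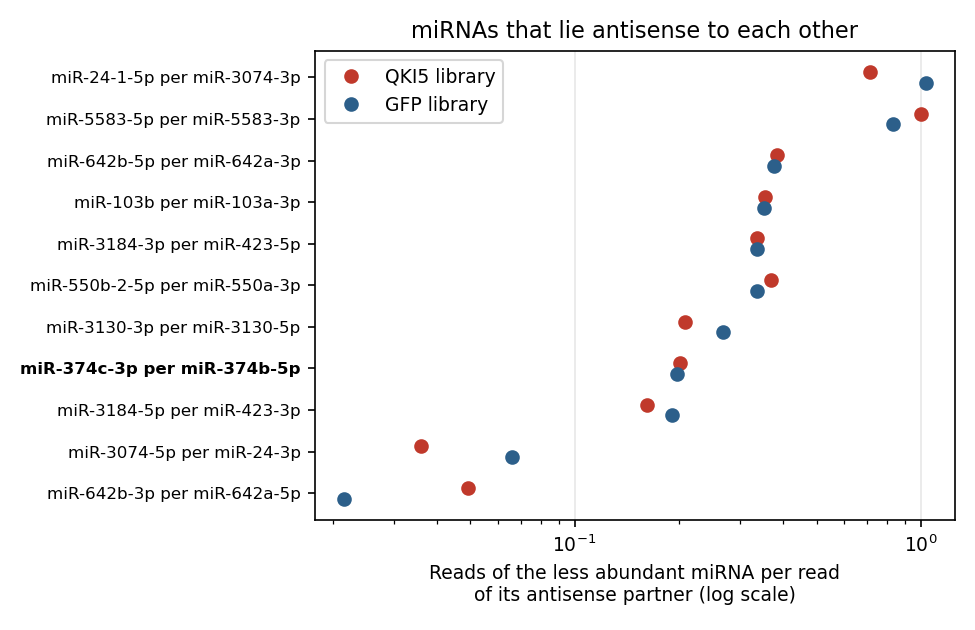
Reads of the less abundant miRNA per read of its antisense partner, on a log scale, in the QKI5 (red) and GFP (blue) library for the 11 pairs with at least 10 reads of each miRNA in both libraries. Which miRNA is the less abundant was set once per pair, and miR-24-1-5p per miR-3074-3p stands at 1.03 in GFP cells. The pair of miR-374c-3p and miR-374b-5p, in bold, stands at 0.202 in QKI5 cells and 0.197 in GFP cells.

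Among the sequences matched, which do not include miR-374a-5p, 1 other listed miRNA shares a seed with a member. It differs in level and place, and seeds shared with miR-374a-5p could not be searched for. miR-655-3p, from the imprinted 14q32 region, has the seed of miR-374c-5p, and beyond it the bases diverge.
miR-655-3p: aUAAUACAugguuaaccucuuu
RefSeq places it at chr14:101049610-101049631 on the plus strand (GRCh38.p14). It was at 275 RPM (1800 reads) in QKI5 cells and 425 RPM (9883 reads) in GFP cells, 1.55-fold lower (1.47 to 1.63). Its level was far above that of miR-374c-5p in both libraries, so nearly all reads with this seed among these 2 arms belonged to miR-655-3p.

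Other miRNAs encoded on the X chromosome had no common direction. Of 118 listed miRNAs whose hairpins RefSeq places there alone, members left out, 34 were among the 400 most abundant. Of the 34, 21 had a positive and 13 a negative log2 ratio, 7 were 2-fold or more higher and 4 were 2-fold or more lower. Among all 400, 232 had a positive and 168 a negative log2 ratio, 20.8% were 2-fold or more higher and 7.25% lower. The median of the 34 was 0.21, as was that of all 400. The most abundant was the myeloid miRNA miR-223-3p, with a ratio of 1.04 (1.03 to 1.05), and the largest differences in size were those of miR-361-5p, 3.71-fold lower (3.17 to 4.36), and miR-500a-3p, 3.78-fold higher (2.88 to 4.95). Their other arms were both higher, miR-361-3p 2.51-fold (2.10 to 2.99) and miR-500a-5p 1.31-fold (1.10 to 1.55), so the arms of miR-361 differed in direction.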

How the data were processed

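Small RNA from 1 QKI5 and 1 GFP library of K562 cells was isolated with a miRNA kit and read on an Ion Proton instrument, per the labels' protocols. Bowtie 0.12.3 and the build hg19 appear in the submitters' processing notes. The deposited values are RPM, although their table is named RPKM: in each column all values above 0 were multiples of a single step, within 0.1 of a read (100.0% of values), so reads and library totals were recovered from them. No replicated count test could be fitted with 1 library per group. Ratios carry exact conditional binomial (Clopper-Pearson) intervals. Ratios between 2 miRNAs within a library carry exact binomial intervals, and their change between libraries an exact conditional odds ratio interval. A count of 3 reads, the limit that 0 reads allow, is 0.458 RPM at the QKI5 depth and 0.129 RPM at the GFP depth. No member was at 0.

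Members and lists were chosen with earlier results of these data known. The text names all 9 members, the miRNAs that share a member's seed, the 3 miRNAs nearest to miR-374b-5p, and antisense partners. From the X-linked list it names the most abundant miRNA and the 2 largest ratios with their other arms. Alternatives covered pseudocount, scaling, depth, GC content, level filter and fold. Sequences came from RefSeq (GRCh38.p14), which matched 1946 of 2218 names, and host gene positions from GENCODE release 29. Calculations, tested on simulated data, ran in Python 3.11.15 with scipy 1.17.1, numpy 2.4.6 and pandas 2.3.3.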

Additional observations from a re-analysis of the deposited data

How the results depend on the processing

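No paired analysis was possible because each group is 1 library and the labels give no replicate numbers. Depth limits the arms under 100 reads in the QKI5 library, which are miR-374a-3p, miR-545-5p and miR-374c-5p. The number of members at least 2-fold lower, 1 as deposited, was 0 at pseudocounts of 1 RPM and of 10 times 0.153 RPM, with columns rescaled to the listed miRNAs, with GFP reads thinned to the QKI5 depth, with the GC trend removed and among the 200 most abundant miRNAs, a filter that leaves miR-374a-3p out. At a fold threshold of 1.5, 1 member, miR-421, was higher. Over all miRNAs tested, the numbers higher and lower were 29 and 91 under the trimmed mean over all detected miRNAs, 49 and 50 under the trimmed mean over the 400, 54 and 45 under quantile normalization, 30 and 14 among the 200, 475 and 145 with no filter on level, and 136 and 70 at a fold threshold of 1.5. The summed level of the members had a ratio of 1.25 as deposited, 1.39 with columns rescaled to the listed miRNAs, 1.16 with the 10 most abundant left out of the scaling, 1.18 under quantile normalization, 1.03 under the trimmed mean over the 400 and 0.836 under that over all detected miRNAs, where its direction turned; the cause was not tested. The last 3 were added after seeing the data, as were the changes of the arm ratios with reads thinned or the GC trend removed. Scaling moved the median log2 ratio of the 400 from 0.21 to 0.36 when rescaled to the listed miRNAs, 0.10 without the 10 most abundant, -0.01 under quantile normalization, -0.36 under the trimmed mean over all detected miRNAs and -0.07 under that over the 400. With GFP reads thinned in 1 random draw, GFP cells had 24.9 miR-374a-5p reads per miR-374a-3p read and 19.2 miR-374b-5p reads per miR-374b-3p read. The GC trend could not be removed for miR-374a-5p, which has no sequence in the table used. Alternatives on shared sequence were chosen after seeing the data. The log2 ratio of miR-374b-5p summed with miR-374c-3p was 0.46, and that of miR-374b-3p summed with miR-374c-3p was 0.36.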

Other observations

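QKI proteins are known to bind the motif ACUAAY, where Y is C or U. The hairpins of MIR421, MIR374A, MIR374B and MIR374C held neither ACUAAC nor ACUAAU on either strand, against 1.54% of 1560 human hairpins for ACUAAC and 1.47% for ACUAAU. MIR545 had no hairpin sequence among the 1560 and was not searched. At shares this low, finding neither motif in 4 hairpins says little. MIR374B and MIR374C also cover nearly the same bases on opposite strands, so they were not searched independently. The 2 motifs cannot start at the same base, but a hairpin can hold both. These letters were looked for in the hairpins alone, and the FTX transcript around them was not searched.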
